A study of Homo sapiens with 6 samples.

Results

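The cytosolic ribosomal protein genes were described in RNA-seq of TFK1 cells with and without STUB1 overexpression. A gene was taken as a member when its symbol was RPL or RPS followed by a number, with or without a closing A or X, or was RPLP0, RPLP1, RPLP2, RPSA or FAU. RPS4Y1 was left out. This gave 78 of the 23569 genes in the table, 46 of the large and 32 of the small ribosomal subunit. TFK1 is an established cell line from a human cholangiocarcinoma, a cancer of the bile duct. The oeNC group held 3 libraries of negative control cells and the oeSTUB1 group 3 libraries of cells that overexpressed STUB1, an E3 ubiquitin ligase and co-chaperone also known as CHIP. The oeSTUB1 cells had been infected with a lentiviral vector that carried the full-length STUB1 coding sequence and selected with puromycin. What the vector of the negative control held is not given in the sources used here, and no treatment was recorded for either group. Nothing in the sources used here says whether the libraries of a group came from separate cultures, so the p-values measure only the spread between these samples, which may be technical. In bulk RNA, fewer cells of a type and less RNA per cell cannot be told apart.

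Ribosomal proteins join the ribosomal RNAs to form the large subunit, which links amino acids, and the small subunit, which decodes the mRNA. Their genes are short, very highly expressed and spread over most chromosomes, and each subunit needs its proteins in matched amounts. Most of their mRNAs begin with a run of pyrimidines, the terminal oligopyrimidine (TOP) tract, through which mTOR and LARP1 control their translation.

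STUB1 itself had 32.9, 33.0 and 30.9 FPKM (fragments per kilobase of gene, scaled to the library total) in oeNC-1, -2 and -3 and 61.4, 75.0 and 61.9 in oeSTUB1-1, -2 and -3, and its log2 fold change was 1.03 ± 0.10 (SE, limma adjusted p = 0.00064). Library totals lay between 33106564 and 36744521 fragments. The oeSTUB1-2 library stood apart from the other 5, because its short transcripts were high and its long transcripts low, and results that rest on it are given with and without it. Of the 7 biliary epithelial markers 6 had at least 1 FPKM in every library, and the sum of the list was 7419 to 7996 FPKM in oeNC and 4724 to 6263 in oeSTUB1. Every marker of the lists had a row in the table. The sums of the fibroblast (6 genes), endothelial (3 genes) and erythroid (3 genes) markers were at most 3.92, 0.231 and 0.544 FPKM. The leukocyte markers (5 genes) summed to 31.5 to 33.2 FPKM in oeNC and 24.0 to 25.4 in oeSTUB1. The part of these differences in the results was not tested.

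All 78 genes passed the filter of a mean of 0.1 FPKM, and their mean levels ran from 0.216 FPKM in RPL36A to a median of 451 FPKM. Levels exceeded 1000 FPKM in 9 genes and lay under 100 in 7. Among the highest were RPL13A, which also silences translation of inflammatory mRNAs, and RPS2, at 1864 ± 42.8 and 1779 ± 46.0 FPKM in oeNC (SD, n = 3 each). On average over the libraries more than 1000 fragments stood behind 75 of the genes, with a median of 18420, so counting error was small for all but a few. The length by which the authors divided the fragments was not the length of the mRNA in every gene. It ran from 390 bases in RPL39 to 7573 in RPL37, while the median protein-coding transcript had between 359 bases in RPS27 and 2317 in RPL4, and the former exceeded the latter more than 2-fold in 23 genes. RPL37, RPS29 and RPL14, with the 3 longest divisors, were listed at 57.6 ± 0.779, 21.6 ± 0.259 and 55.4 ± 1.78 FPKM in oeNC (SD, n = 3). With transcript length in place of the divisor their mean levels over all libraries were 690, 243 and 438. On that scale RPLP1, RPL13A and RPS2 had 2173, 1770 and 1759, and the SD of the log2 level over the genes other than RPS10 and RPL36A was 1.13 against 1.47 with FPKM. Levels between genes are therefore compared only within these limits, while differences between libraries do not depend on the divisor. Pseudogenes named after the gene are annotated for 77 of the 78, up to 91 for RPL23A, and how fragments that match several copies were counted is not given in the sources used here.

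Pyrimidine runs were common at the annotated starts of these genes. RefSeq sequences around the annotated start (GRCh38.p14) were at hand for 63 genes. Of these 48 (76.2%) had at least 8 C or T in a row, on the transcribed strand, in the window of 15 bases before and 15 bases after the start, against 13.4% of 27305 promoters. On the other strand 0 of the 63 had such a run, against 10.8% of all promoters. The letters CTTTCC, which may lie inside such a run, stood in 16 of the 63 windows (25.4%) and in 1.48% of all, and on the other strand in 0% and 1.15%. The windows of genes at both ends of the differences described further on are printed with the longest pyrimidine run in capitals. The run had 12 to 14 bases in RPL31, RPL37A and RPS3, which were low among the ribosomal proteins in oeSTUB1, and 15, 24 and 9 bases in RPL35, RPL7A and RPS26, which were high. RPL3, also low, had only 5 pyrimidines in a row at its annotated start, and FAU had 16.
RPL31: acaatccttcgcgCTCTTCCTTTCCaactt
RPL37A: gcaccgcgTCTCTTCCTTTCTgggctcgga
RPS3: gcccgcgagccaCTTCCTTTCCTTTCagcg
RPL3: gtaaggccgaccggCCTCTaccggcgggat
RPL35: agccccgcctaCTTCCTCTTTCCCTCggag
RPL7A: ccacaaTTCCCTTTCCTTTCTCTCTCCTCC
RPS26: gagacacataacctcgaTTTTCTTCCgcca
FAU: cgccctcgCTTCTTCCTCTTTCTCgactcc
The windows lie at chr2:101002274-101002303 on the plus strand for RPL31, chr2:216498829-216498858 (plus) for RPL37A, chr11:75399503-75399532 (plus) for RPS3, chr22:39319609-39319638 (minus) for RPL3, chr9:124861943-124861972 (minus) for RPL35, chr9:133348203-133348232 (plus) for RPL7A, chr12:56041903-56041932 (plus) for RPS26 and chr11:65122120-65122149 (minus) for FAU. A run in the window is a description of the annotated start and not a measured start site.

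The ribosomal protein genes differed from oeNC together within each oeSTUB1 library, but not in the same direction in all 3. They took up 5.06, 4.94 and 4.81% of all fragments in oeNC-1, -2 and -3, and 4.32, 6.17 and 4.38% in oeSTUB1-1, -2 and -3. The Wilson 95% interval of each share was at most 0.016 percentage points wide and covers counting error only. Set against the mean of the oeNC libraries on the log2(FPKM + 0.1) scale, the median gene stood at -0.18, 0.36 and -0.15 in oeSTUB1-1, -2 and -3, which is -12.0%, 28.3% and -10.1%, and at 0.04, 0.00 and -0.03 in the oeNC libraries themselves. Below the range of the oeNC libraries lay 68 genes in oeSTUB1-1 and 65 in oeSTUB1-3, but 0 in oeSTUB1-2. In oeSTUB1-2, 76 lay above that range and 75 were the highest of all 6 libraries. How many of all tested genes left the oeNC range in each library is not given here, so these counts have no background. Above the oeNC mean lay 8%, 100% and 12% of the ribosomal protein genes in oeSTUB1-1, -2 and -3. Of all tested genes 54%, 51% and 55% lay above it. The 2 subunits went together, with medians of -0.19, 0.32 and -0.16 for the large and -0.18, 0.39 and -0.15 for the small subunit in the same order. The median of all 15353 tested genes was 0.03, 0.01 and 0.03. Among the 48 genes with a pyrimidine run the medians were -0.18, 0.40 and -0.16, and among the 15 without they were -0.18, 0.33 and -0.14.

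**Figure D1:**
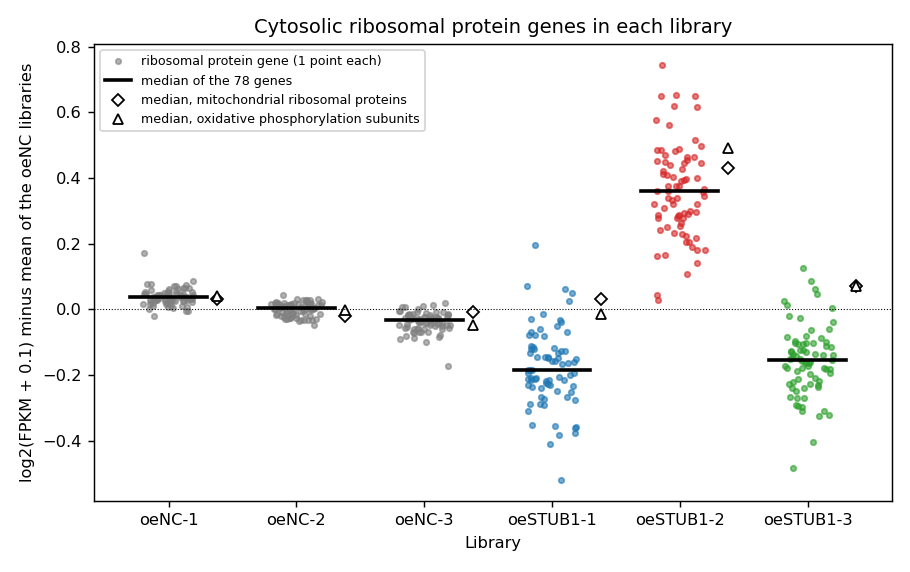
The level of each ribosomal protein gene in each library is plotted as log2(FPKM + 0.1) minus the mean of the 3 oeNC libraries, with bars at the median of all 78 genes and open symbols at the medians of mitochondrial ribosomal proteins and oxidative phosphorylation subunits. The points leave out RPS10 and RPL36A. The bars stand at -0.18 and -0.15 in oeSTUB1-1 and -3 and at 0.36 in oeSTUB1-2.

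The mitochondrial ribosomal proteins, which are built into a separate ribosome, and the nuclear-encoded subunits of oxidative phosphorylation were set beside the cytosolic genes. They were not matched to the cytosolic genes in length or level. Like the cytosolic set, both lists were high in oeSTUB1-2, with medians of 0.43 (77 tested genes) and 0.49 (80 tested genes). In oeSTUB1-1 and -3 they stayed close to the oeNC mean, at 0.03 and 0.07 for the mitochondrial ribosomal proteins and -0.01 and 0.07 for oxidative phosphorylation. The plot by library shows this as open symbols near 0 above the bars of the cytosolic genes in oeSTUB1-1 and -3.

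The shift of oeSTUB1-2 followed transcript length in the whole table. Of the tested genes 14285 had a transcript length, with a median of 2415 bases against 738 for the ribosomal protein genes. Among tested genes other than the ribosomal proteins, the median log2 difference in oeSTUB1-2 was 0.36 for transcripts of 500 to 700 bases, 0.33 for 700 to 1000, 0.27 for 1000 to 1500, 0.06 for 2000 to 3000 and -0.64 over 8000. The ribosomal protein genes of the ranges from 500 to 1500 bases stood at 0.41 (27 genes), 0.33 (26 genes) and 0.29 (13 genes), close to other genes of their length. The 7 under 500 bases stood at 0.51, against 0.31 for the 184 other genes of that range, the 4 of 1500 to 2000 bases at 0.34 against 0.18, and RPL4, the only one of 2000 to 3000 bases, at 0.14 against 0.06. In oeSTUB1-1 the ranges from 500 to 1500 bases gave -0.01, -0.03 and -0.00 for other genes and -0.16, -0.20 and -0.16 for ribosomal proteins, and in oeSTUB1-3 0.04, 0.02 and 0.02 against -0.15, -0.16 and -0.16. In these 2 libraries the ribosomal protein genes were thus below other transcripts of their length in each range. Within the set, shorter transcripts were higher in oeSTUB1-2 (Spearman's rho = -0.35 over 78 genes, which share the library, against -0.41 over all genes with a transcript length), while rho was -0.08 and -0.07 in oeSTUB1-1 and -3. These values describe single libraries and were not tested.

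**Figure D2:**
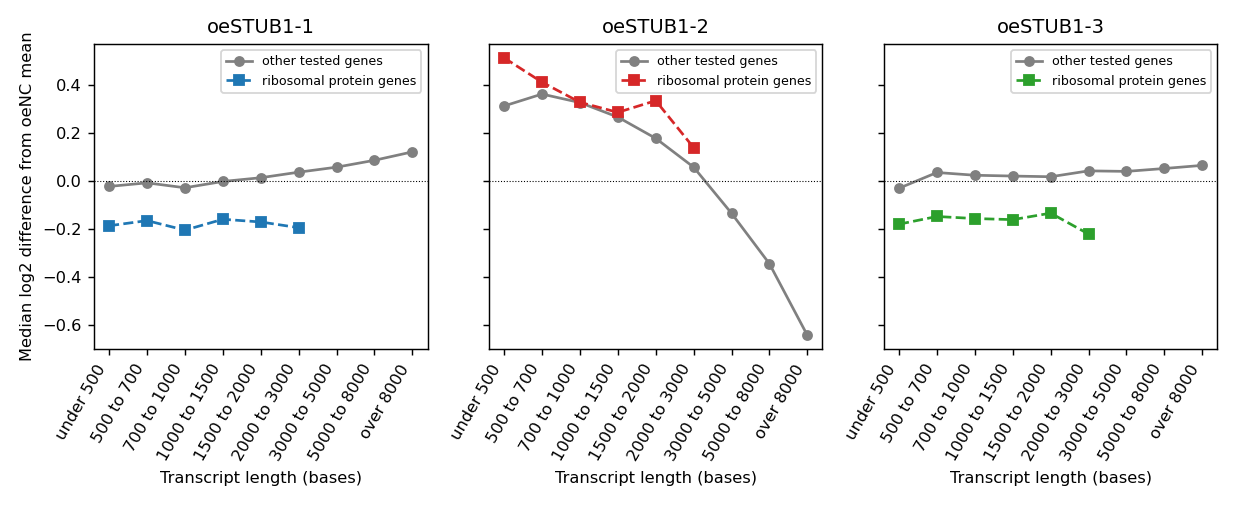
Median log2 difference from the oeNC mean by transcript length in bases, in 1 panel per oeSTUB1 library, for ribosomal protein genes (squares) and other tested genes (circles). In oeSTUB1-2 the circles fall with length from 500 bases on and the squares lie close to them between 500 and 1500 bases, whereas in oeSTUB1-1 and -3 the squares lie between -0.13 and -0.22 at every length. The range of 2000 to 3000 bases holds 1 ribosomal protein gene, RPL4.

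Ribosomal protein genes with a long divisor of the FPKM but a short transcript were high in oeSTUB1-2 too. The 5 ribosomal protein genes with a divisor of 5000 to 8000 bases had a median of 0.30 in oeSTUB1-2, where the other 3058 genes of that range stood at -0.17. Removing a lowess curve of the log2 values against transcript length from each library left the ribosomal protein genes at -0.15, 0.05 and -0.16 in oeSTUB1-1, -2 and -3, and against the divisor at -0.14, 0.08 and -0.15. After the correction by transcript length the mitochondrial ribosomal proteins stood at 0.05, 0.16 and 0.07 and the oxidative phosphorylation subunits at 0.01, 0.21 and 0.07. The excess of oeSTUB1-2 over the other oeSTUB1 libraries shrank from 0.52 to 0.18 for the median cytosolic gene and did not vanish. This excess is the median log2 difference from those libraries and not the difference of the medians printed above.

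Among genes of the large subunit, the stalk proteins, which recruit elongation factors to the ribosome, showed the pattern of the whole set. RPLP0, the base of the stalk, had 1628, 1589 and 1545 FPKM in the oeNC libraries and 1358, 1861 and 1346 in oeSTUB1-1, -2 and -3. RPLP1, which pairs with RPLP2 in the stalk, had 812.9, 819.3 and 816.3 FPKM against 675.6, 1113 and 704.3. RPLP2 had 865.0, 812.3 and 845.5 FPKM against 706.5, 1160 and 746.2. All 3 were below every oeNC library in oeSTUB1-1 and -3 and above every oeNC library in oeSTUB1-2. RPL5 and RPL11, which bind MDM2 when ribosome assembly is disturbed, stood at -13.0% and -9.07% of their oeNC means in the mean of oeSTUB1-1 and -3 and at 16.6% and 21.6% in oeSTUB1-2. For RPL10, which joins late in the maturation of the large subunit, the same values were -13.2% and 22.4%, and for RPL13A they were -20.8% and 17.5%. RPL39, with the shortest divisor, lines the tunnel through which the new peptide leaves. It had 955.4, 894.0 and 879.5 FPKM in oeNC and 900.8, 1298 and 857.0 in oeSTUB1, so that only oeSTUB1-2 left the oeNC range by a wide margin.

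Genes of the small subunit did likewise. RPS6, the substrate of S6 kinase, had 845.7, 852.5 and 829.0 FPKM in oeNC and 797.1, 1093 and 807.2 in oeSTUB1. RPSA, also known as the laminin receptor precursor, had 1134, 1109 and 1055 FPKM against 984.3, 1450 and 989.1. Both lay below the oeNC range in oeSTUB1-1 and -3 and above it in oeSTUB1-2. RPS14, the gene lost in the myelodysplastic syndrome with deletion of the long arm of chromosome 5, stood at -9.96% in the mean of oeSTUB1-1 and -3 and at 35.5% in oeSTUB1-2. RPS15A stood at -15.2% and 22.0%, and RPS19, the gene most often mutated in Diamond-Blackfan anaemia, at -6.63% and 49.1%. RPS29, a small zinc-binding protein, spread the most among these, with -20.3% and 53.8%. Over the 76 genes other than RPS10 and RPL36A, the mean of oeSTUB1-1 and -3 ran from -29.4% in RPL31 to 10.1% in RPS26 with 71 genes below 0, and oeSTUB1-2 ran from 2.05% in RPL31 to 67.4% in RPS26 with 0 below.

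Ribosomal proteins made as fusions with ubiquitin or a ubiquitin-like protein were looked at separately because STUB1 transfers ubiquitin. RPS27A, which releases a ubiquitin, had 545.9, 526.1 and 487.0 FPKM in oeNC and 424.9, 655.9 and 414.0 in oeSTUB1. FAU, which releases a ubiquitin-like protein, had 257.2, 248.1 and 234.6 FPKM against 233.5, 387.6 and 241.8. In oeSTUB1-1 and -3 RPS27A was clearly below the oeNC libraries, while FAU lay just under them in oeSTUB1-1 and among them in oeSTUB1-3.

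With all 6 libraries few ribosomal protein genes passed the test between the groups. On log2(FPKM + 0.1), limma with Benjamini-Hochberg adjustment over all 15353 genes called 1 gene higher and 0 lower at an adjusted p under 0.05, where 7.01% of all tested genes were called higher and 6.59% lower. With an absolute log2 fold change over 1 as well, 0 of the 78 were called against 5.20% of all genes. At an unadjusted p under 0.05 there was 1 gene, and limma-voom on the recovered fragments called 0. The gene called was RPS10, which has very few fragments and is described further on. The fold changes had a median of 0.01, with 43 genes above and 35 below 0, and the median of all genes was 0.02. The FPKM of the groups did not overlap in 3 genes, RPL7A, RPS10 and RPS26, all higher in oeSTUB1, whereas they did not overlap in 38.8% of all tested genes. The wide gap between oeSTUB1-2 and the other oeSTUB1 libraries entered the spread of this test, and a p that misses the threshold does not show that the levels were alike.

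Without oeSTUB1-2 the test called 42 ribosomal protein genes lower and 1 higher, beside 12.0% of all tested genes lower and 14.8% higher, and the median fold change was -0.17 against 0.03 for all genes. Of the 42, 25 belonged to the large and 17 to the small subunit. With lowess correction for the divisor length and all 6 libraries, 5 were lower and 1 higher (10.7% and 10.9% of all genes), and with correction for transcript length 9 were lower and 1 higher (11.6% and 12.0%), with medians of -0.05 and -0.08. The 9 were RPL3, RPL12, RPL19, RPL23, RPL23A, RPL26, RPL31, RPL37A and RPS3, named after their values were seen. With oeSTUB1-2 left out as well as the divisor correction, 35 were lower and 1 higher (12.6% and 12.9% of all genes). The lower calls thus depended on oeSTUB1-2, and in the fits given here their share lay well above that of all genes only without that library (53.8% against 12.0%, and 44.9% against 12.6% with the correction).

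**Figure D3:**
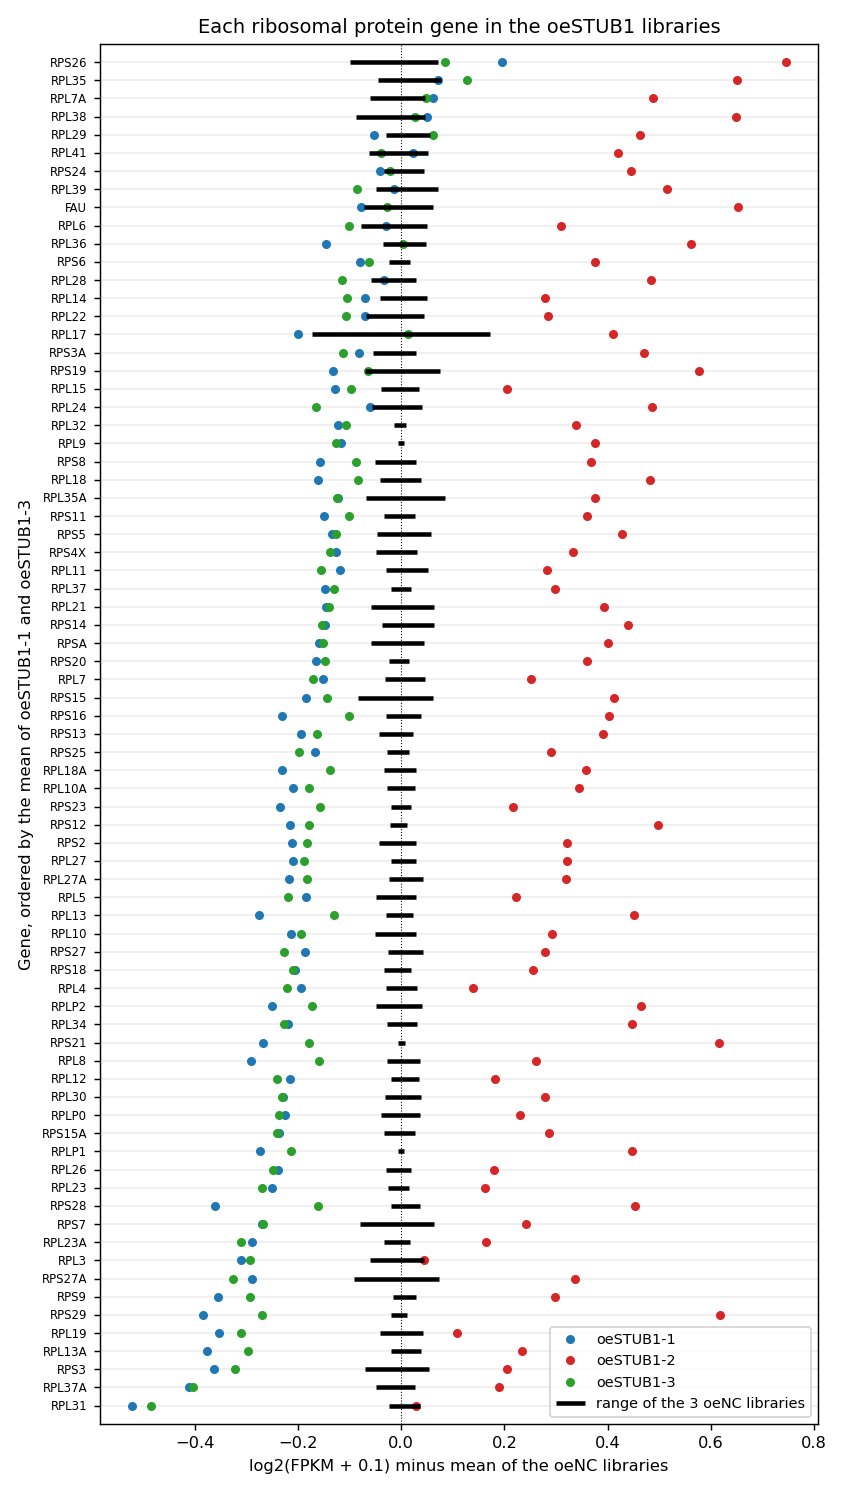
Each row is 1 of 75 ribosomal protein genes, leaving out RPS10, RPL36A and a gene not reported here, with its log2(FPKM + 0.1) minus the oeNC mean in oeSTUB1-1 (blue), oeSTUB1-2 (red) and oeSTUB1-3 (green) and the range of the 3 oeNC libraries (black bar). Blue and green points lie close together and mostly left of the bar, red points right of it, and the order of the genes runs from RPL31 at the bottom to RPS26 at the top.

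The 5 genes with the largest negative fold change over all libraries were RPL31, RPL37A, RPL3, RPL19 and RPS3. RPL31, a protein at the rim of the peptide exit tunnel (chromosome 2 from 101001715 to 101024032, plus strand, GENCODE release 29 on GRCh38), had 222.3, 214.9 and 213.1 FPKM in oeNC and 151.1, 221.2 and 154.9 in oeSTUB1. It was the lowest of the 78 genes relative to oeNC in each of the 3 oeSTUB1 libraries. Its log2 fold change was -0.33 ± 0.15 (SE, limma adjusted p = 0.18) with all libraries and -0.50 ± 0.04 (adjusted p = 0.00029) without oeSTUB1-2. RPL37A, a zinc-binding protein of the large subunit (chromosome 2 from 216498189 to 216579180, plus strand), had 164.7, 164.4 and 156.3 FPKM in oeNC against 121.6, 184.6 and 122.3, with fold changes of -0.21 (adjusted p = 0.43) and -0.41 (adjusted p = 0.00083) in the same fits. RPL3, which reaches towards the catalytic centre of the ribosome, had fold changes of -0.19 (limma adjusted p = 0.37) with and -0.30 (adjusted p = 0.0052) without that library. For RPL19 the values were -0.19 (adjusted p = 0.42) and -0.33 (adjusted p = 0.0031), and for RPS3, which lies at the entry of the mRNA channel, -0.16 (adjusted p = 0.53) and -0.34 (adjusted p = 0.0033).

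The 5 largest positive fold changes belonged to RPS10, RPS26, RPL35, RPL36A and RPL38. RPS26, at the exit of the mRNA channel (chromosome 12 from 56041351 to 56044697, plus strand), had 155.7, 150.9 and 138.4 FPKM in oeNC and 169.6, 248.3 and 157.1 in oeSTUB1. All 3 oeSTUB1 libraries were above all oeNC libraries, by little in oeSTUB1-3. Its fold change was 0.34 ± 0.17 (SE, limma adjusted p = 0.21), and 0.14 (adjusted p = 0.14) without oeSTUB1-2. RPL35, at the peptide exit (chromosome 9 from 124857880 to 124861981, minus strand), had 626.9, 581.0 and 576.3 FPKM against 624.7, 933.2 and 649.0, with a fold change of 0.28 (adjusted p = 0.28), and 0.10 (adjusted p = 0.21) without oeSTUB1-2. RPL38, needed in the mouse for translation of Hox mRNAs, had 190.9, 190.5 and 174.0 FPKM against 191.4, 289.9 and 188.3, with a fold change of 0.24 (adjusted p = 0.37), and 0.04 (adjusted p = 0.63) without oeSTUB1-2. RPL7A (chromosome 9 from 133348214 to 133351426, plus strand) had 873.8, 854.0 and 810.7 FPKM against 882.7, 1186 and 874.2, with a fold change of 0.20 (adjusted p = 0.38), and 0.05 (adjusted p = 0.45) without oeSTUB1-2. In oeSTUB1-1 and -3 RPS26, RPL35, RPL38 and RPL7A were within or above the oeNC range while most other ribosomal protein genes were below it.

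A few ribosomal protein genes stood apart from the others in oeSTUB1, but after centring the share called was near that of all genes. Without RPS10 and RPL36A, the SD over genes of the log2 difference from the oeNC mean was 0.026, 0.020 and 0.030 in the oeNC libraries, which are part of that mean, and 0.120, 0.144 and 0.107 in the oeSTUB1 libraries, which are not, so that these SDs give the distance from the oeNC proportions and not the spread within oeSTUB1. Relative to the median ribosomal protein gene of the same library, RPL31 stood at -0.34, -0.33 and -0.33 in oeSTUB1-1, -2 and -3, RPL37A at -0.23, -0.17 and -0.25, and RPS3 at -0.18, -0.15 and -0.17. On the same scale RPL35 stood at 0.26, 0.29 and 0.28, RPS26 at 0.38, 0.39 and 0.24, and RPL38 at 0.23, 0.29 and 0.18. These offsets recurred in all 3 oeSTUB1 libraries, oeSTUB1-2 included, but these genes were picked by their fold change over the same libraries. Their recurrence is thus partly fixed by that choice and was not tested. When each library was centred on the median ribosomal protein gene, limma called RPL35 (log2 fold change 0.30, adjusted p = 0.016), RPL7A (0.21, adjusted p = 0.029) and RPS26 (0.35, adjusted p = 0.033) higher and RPL31 (-0.31, adjusted p = 0.026) lower, which is 3 and 1 of 78 beside 3.54% and 2.21% of all genes. RPS10 was not called in that fit (adjusted p = 0.065). Without centring 7.01% of all genes were called higher and 6.59% lower, so centring also changed the background of this count.

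RPL31 and RPL37A lie on chromosome 2, where genes were lower in oeSTUB1 as a whole, and RPL35 and RPL7A on chromosome 9, where they were higher. The median fold change over all tested genes was -0.21 for the 1031 of chromosome 2 and 0.16 for the 604 of chromosome 9. The 4 ribosomal protein genes of chromosome 2, RPL31, RPL37A, RPS7 and RPS27A, had a median of -0.15 with 4 of 4 below 0, and the 4 of chromosome 9, RPL7A, RPL12, RPL35 and RPS6, had a median of 0.14 with 3 of 4 above 0. The other 70 had a median of 0.02. Without oeSTUB1-2 the medians were -0.36, -0.01 and -0.16. RPL12 (chromosome 9) went against the others, at 872.5, 842.8 and 840.8 FPKM in oeNC and 733.4, 966.3 and 720.7 in oeSTUB1, and RPS26 and RPL38 lie on neither chromosome. The part of these chromosome-wide shifts in the values of RPL31, RPL37A, RPL35 and RPL7A was not tested.

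**Figure D4:**
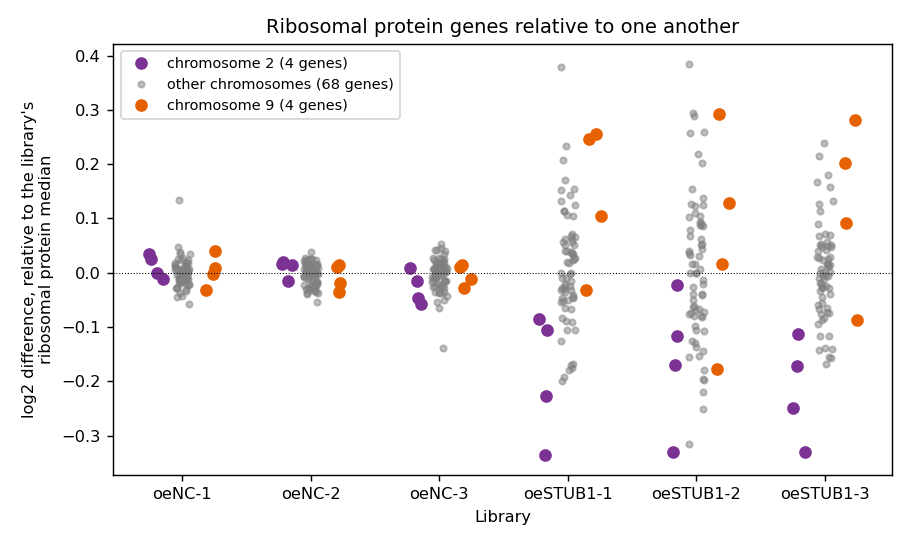
Log2 difference of each ribosomal protein gene from the oeNC mean, relative to the median ribosomal protein gene of the same library, by library and chromosome. Genes of chromosome 2 (purple) lie below 0 in every oeSTUB1 library, 3 of the 4 of chromosome 9 (orange) lie above it, and the 4th, RPL12, lies below. RPS10 and RPL36A are left out.

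The members with the fewest fragments were RPL36A, RPS10 and RPL17. RPS10, a protein near the entry of the mRNA channel (chromosome 6 from 34417454 to 34426125, minus strand), had 17, 17 and 16 fragments in oeNC against 41, 35 and 25 in oeSTUB1, or 0.594, 0.595 and 0.528 FPKM against 1.44, 1.28 and 0.888. Each oeSTUB1 library was above each oeNC library. Its log2 fold change was 0.93 ± 0.19 (SE, limma adjusted p = 0.019), and 0.88 (adjusted p = 0.022) without oeSTUB1-2. The call was lost when oeNC-1, oeNC-2, oeNC-3 or oeSTUB1-1 was left out (adjusted p = 0.065, 0.067, 0.075 and 0.060). RPL36A had 8, 1 and 7 fragments against 4, 9 and 5, with overlapping groups and a fold change of 0.26 (adjusted p = 0.73). RPL17 had 362, 321 and 301 fragments against 277, 408 and 319, again overlapping. Each of the 3 shares its strand and locus with an annotated read-through gene, RPS10-NUDT3, RPL36A-HNRNPH2 and RPL17-C18orf32, and how fragments that match both were counted is not given in the sources used here.

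Of 21 translation factors and other genes with TOP mRNAs 2 (9.52%) were called lower and 0 higher with all libraries (median -0.04), near the 6.59% of all genes called lower. Without oeSTUB1-2, 11 (52.4%) were called lower against 12.0% of all genes (median -0.16). EEF2, which moves the ribosome along the mRNA, had 642.8, 648.8 and 634.7 FPKM in oeNC and 490.6, 430.4 and 512.4 in oeSTUB1, with a fold change of -0.43 ± 0.10 (SE, limma adjusted p = 0.028). EIF4B, an initiation factor, had 242.7, 243.7 and 236.8 FPKM against 189.8, 179.9 and 193.2, with a fold change of -0.36 (adjusted p = 0.020). Both were below every oeNC library in all 3 oeSTUB1 libraries, oeSTUB1-2 included, and both calls were lost without any 1 of the oeNC libraries (adjusted p = 0.081 to 0.14), and that of EEF2 also without oeSTUB1-1 (adjusted p = 0.062). Both calls were also lost with the replicate number as a block (adjusted p = 0.079 for EEF2 and 0.076 for EIF4B). The ribosomal scaffold RACK1 differed from them in oeSTUB1-2, where it was high like the ribosomal proteins. RACK1 had 1215, 1171 and 1170 FPKM in oeNC against 1041, 1370 and 1070 in oeSTUB1. The shift of oeSTUB1-2 followed transcript length, and the part of length in this difference was not tested. With the transcript length correction and all libraries, limma gave EEF2 -0.44 (adjusted p = 0.002), EIF4B -0.41 (adjusted p = 0.0038) and RACK1 -0.14 (adjusted p = 0.12). Without oeSTUB1-2, limma called EEF2 (-0.36, adjusted p = 0.0016), EIF4B (-0.33, adjusted p = 0.0014) and RACK1 (-0.17, adjusted p = 0.035) lower. EEF1A1, which delivers aminoacyl-tRNA, had 2119, 2095 and 2057 FPKM against 1652, 2011 and 1727.

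In the other lists of the pathway few genes were called with all libraries, where 7.01% of all genes were called higher and 6.59% lower. More were called without oeSTUB1-2, where 14.8% of all genes were called higher and 12.0% lower. None of 34 ribosome biogenesis genes was called by limma with all libraries, with 9 (26.5%) at an unadjusted p under 0.05 against 29.7% of all genes, and the median was 0.15. Without oeSTUB1-2, 7 (20.6%) were called higher and 4 (11.8%) lower. With the transcript length correction 5 (14.7%) were higher and 1 (2.94%) lower, against 12.0% and 11.6% of all genes. Its extremes with all libraries were SBDS, which frees the new large subunit for translation, at 0.37 (adjusted p = 0.079) and NOP53 at -0.23 (adjusted p = 0.27). Without oeSTUB1-2 they were called, at 0.25 (limma adjusted p = 0.041) and -0.37 (adjusted p = 0.0019). The 6 tested paralogs of ribosomal proteins had 0 calls, 1 unadjusted p under 0.05 and a median of 0.12, the highest being RPL26L1 at 0.36 (adjusted p = 0.14). Of 12 genes that control ribosomal protein mRNAs 1 was called, EIF4E, the cap-binding protein, which rose by 0.32 on the log2 scale (adjusted p = 0.040), a call lost with median-ratio scaling (adjusted p = 0.062), quantile normalization (0.052), no eBayes trend (0.076), the replicate block (0.10) or any 1 library other than oeSTUB1-2 left out (0.059 to 0.17). Without oeSTUB1-2, 4 of the 12 were higher and 1 lower. MYC, a transcription factor of these genes, stood at -0.27 (adjusted p = 0.21). Of 11 host genes of small nucleolar RNAs, which also begin with a TOP tract, 0 were called with 3 (27.3%) at an unadjusted p under 0.05, and they ran from -0.45 in EPB41L4A-AS1 (adjusted p = 0.17) to 0.41 in SNHG12 (adjusted p = 0.098) with a median of -0.18. Without oeSTUB1-2, 8 of the 11 (72.7%) were called lower, with a median of -0.36. Among the 77 mitochondrial ribosomal proteins 2 were higher and 1 lower with a median of 0.18, from MRPL36 at 0.44 (adjusted p = 0.040) to MRPL10 at -0.43 (adjusted p = 0.020), and without oeSTUB1-2 11 (14.3%) were higher and 9 (11.7%) lower, close to the shares of all genes.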

How the data were processed

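Whole-transcriptome RNA-seq of 6 libraries, 3 per group, was used, and groups and replicate numbers came from the sample labels. The authors deposited FPKM values for 23569 genes. The submitters' processing notes list fastp 0.20.1, HISAT2 2.1.0, HTSeq 0.11.2, DESeq2 1.22.2, R 3.2.0 and the build GRCh38.p13. Annotation, strand setting and treatment of multiply mapped reads are not given in the sources used here. Whole fragments and the length behind each value were recovered for 23569 genes (100%), with a largest difference of 4.9e-06 FPKM, and 99.7% of each library total lay on listed genes. The smallest length that gave whole fragments was taken.

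The 15353 genes whose mean reached 0.1 FPKM were fitted with limma 3.58.1 in R 4.3.3 on log2(FPKM + 0.1), with lmFit, eBayes with trend, two-sided tests and Benjamini-Hochberg adjustment, and an adjusted p under 0.05 counted as a call. The scripts were tested on simulated data. Transcript length was the median of the basic protein-coding transcripts in GENCODE release 29. Lowess corrections used a span of 0.3. Centring on the ribosomal proteins, the transcript length correction and the fit that combined the length correction with leaving out oeSTUB1-2 were chosen after the data were seen. The members and lists were chosen with earlier results of these data known. Genes named were the stalk and fusion proteins, members of known roles, the 3 shortest, longest, highest and lowest, and the 5 largest changes in each direction, with RPL7A and RPL12 named after their values were seen. Some genes that these rules name are not reported here. Replicate numbers did not pair the libraries. Value columns of no mapped sample numbered 0.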

Additional observations from a re-analysis of the deposited data

How the results depend on the processing

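The count of ribosomal protein genes past the threshold, 1 with all 6 libraries, was 1 without a filter, with pseudocounts of 1 and 0.01, with median-ratio scaling, without the eBayes trend and with totals that leave out the ribosomal proteins. It was 0 with a filter at a mean of 1 FPKM, which drops RPS10, and 0 with limma-voom on fragments. It was 4 after centring on the ribosomal proteins, 7 after quantile normalization, 6 with the length correction and 10 with the transcript length correction. With the length correction and oeSTUB1-2 left out it was 36. Of all tested genes 3.54% were higher and 2.21% lower after centring, and 10.9% and 10.7% with the length correction. The shares were 12.0% and 11.6% with the transcript length correction, and 12.9% and 12.6% with the length correction and oeSTUB1-2 left out. For quantile normalization the share of all genes is not given here. Leaving out 1 library each gave between 0 and 43, the 43 being the fit without oeSTUB1-2 and the 0 coming from leaving out any oeNC library or oeSTUB1-1. With the replicate number as a block the count was 1 and the median fold change 0.01, and same-numbered libraries correlated at -0.05, -0.05 and 0.06, so that numbers alone gave no pairing.

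The median fold change of the ribosomal proteins, 0.01, lay between -0.17 (without oeSTUB1-2) and 0.11 (without oeSTUB1-1) over the libraries left out, and changed sign with median-ratio scaling (-0.01), quantile normalization (-0.05) and both length corrections (-0.05 and -0.08). Its direction was therefore not fixed by these data. The excess of oeSTUB1-2 over the other oeSTUB1 libraries, 0.52, was 0.16 after quantile normalization, 0.21 after the length correction and 0.18 after the transcript length correction. Of the 78 ribosomal protein genes 36 had a fold change of the other sign without oeSTUB1-2, 22 without oeSTUB1-1, 20 without oeSTUB1-3, 3 to 5 without an oeNC library, 20 after quantile normalization, 26 and 29 after the length and transcript length corrections, and 6 or fewer under each other setting that kept oeSTUB1-2. Among the genes of largest change in each direction, that of RPL36A changed sign, from 0.26 to between -0.22 and 0.56 over the libraries left out. The calls of EEF2, EIF4B, EIF4E, MRPL36, MRPL10 and NDUFC2 were each lost without any 1 of the oeNC libraries, and those of EEF2, EIF4B, EIF4E, MRPL36 and MRPL10 also with the replicate block. MRPL36 was also lost with median-ratio scaling, without the trend and without a filter, EEF2 without a filter and with quantile normalization, NDUFC2 without a filter, and RPS10 with limma-voom. The cause of these changes was not tested beyond the settings themselves. Few fragments limit RPL36A and RPS10, with 1 to 41 per library. How fragments shared with their read-through genes were counted is not given in the sources used here.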
